A study of Homo sapiens with 8 samples.

Results

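The nuclear genes for the subunits of the respiratory chain and of ATP synthase were compared between wild-type and DOT1L knockout cells, complex by complex. Members were chosen by name among the protein-coding genes of the count table. The rule took genes named NDUFA, NDUFB, NDUFC, NDUFS or NDUFV plus a number, NDUFAB1, SDHA to SDHD, every UQCR gene, CYC1, the COX4I, COX5, COX6, COX7 and COX8 genes, and the ATP5F1, ATP5M and ATP5P genes. Of 60646 genes in the table, 88 met it, 37 of them in complex I, 4 in complex II, 10 in complex III, 18 in complex IV and 19 in complex V. NDUFA4 was placed in complex IV, of which its product is known to be a part. Another 119 genes with matching names were not protein-coding, 117 of them pseudogenes, and were left out.

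Transcript levels came from RNA-seq of the human cell line MDA-MB-231, derived from breast cancer of the triple-negative kind, with libraries that keep the strand and were made from total RNA after removal of ribosomal RNA. The 8 samples formed 2 groups. In 4 of them DOT1L was wild-type, and the other 4 came from cells labelled DOT1L/+ KO, edited with a guide RNA against exon 1 of DOT1L, which is called the knockout here. Both groups were grown in the same medium and collected on the day after plating, with no drug. The labels do not state how many alleles were edited, whether the knockout cells are 1 clone, or whether separate cultures stand behind the samples of a group. The p-values therefore measure only how far these samples spread, and that spread may be technical. The title of the series places the comparison in work on DOT1L, the enzyme that methylates histone H3 at lysine 79, and on how long MYC and Mondo factors stay on chromatin. The question here is which subunit transcripts differed in level between the groups.

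Counts assigned to genes came to between 40103408 and 50031412 per sample. DOT1L itself ranged from 101 to 118 CPM (counts scaled by library size to a common total) in wild-type and from 78.1 to 92.3 CPM in the knockout, so the groups did not overlap. Its log2 change, knockout minus wild-type, was -0.37 (SE 0.06, edgeR's quasi-likelihood test, adjusted p = 2.83e-05). A count over the whole gene includes transcripts of an edited allele and does not measure intact DOT1L. Of 19877 genes with enough counts to test, 9458 passed at a Benjamini-Hochberg adjusted p below 0.05. That is a background of 47.6% of genes, with 23.9% higher and 23.6% lower in the knockout. All 6 markers of this line that were checked (VIM, CD44, AXL, CAV1, ANXA1 and KRT18) were well expressed, with group means from 248 to 3871 CPM. ESR1, PGR and CDH1 each averaged under 1 CPM in both groups, whereas ERBB2 stood at 86.9 and 73.8 CPM and EPCAM at 6.62 and 6.74 CPM. Summed over 6 markers of blood, endothelial and muscle cells, samples held 0.930 to 1.98 CPM in wild-type and 1.78 to 2.61 CPM in the knockout, and CD3E and MYOG had 0 counts in wild-type. Of these markers DES differed between the groups, at 0.133 and 0.897 CPM (log2 change 2.74, adjusted p = 1.87e-06), and its part in the results was not tested.

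As background, complexes I and II feed electrons from NADH and from succinate into ubiquinone, complex III passes them to cytochrome c, and complex IV hands them to oxygen. Complexes I, III and IV pump protons across the inner mitochondrial membrane, and ATP synthase, or complex V, uses the returning protons to make ATP. Most subunits are encoded in the nucleus, made in the cytosol and imported, and in all but complex II they are assembled with subunits that the mitochondrial genome encodes. Transcripts of the mitochondrial genome were not analysed here.

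Of the 88 subunit genes, 81 had enough counts to test, and the change between groups was small for most of them and went in both directions. In the knockout 14 were higher, 19 were lower and 48 did not pass. The 33 that passed make up 40.7% of the tested members, against 47.6% of all genes. The median log2 change over the members was 0.01, and over all genes 0.00. A change of less than 0.2 on the log2 scale was measured for 57 of the 81 (70.4%), against 44.4% of all genes tested, and only NDUFC1, UQCRC1 and NDUFS6 moved by more than 0.5. That background was not matched for level. Of the 19877 tested genes 13212 had a mean log2 CPM of 1 or more, as did all members but NDUFA7 and ATP5MGL. Genes with few counts scatter more, so the smaller changes of the members cannot be read as a trait of respiratory genes. The 4 knockout samples lay apart from the 4 wild-type samples for 34 members, above them for 14 and below them for 20, where 43.4% of all genes had groups that did not overlap. In bulk RNA, a lower level in each cell and fewer cells that express a gene cannot be told apart.

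The balance of directions depended on how libraries were scaled. With upper-quartile scaling, which moved the median of all genes by 0.07, 29 members were higher and 16 lower, against a background of 30.3% higher and 18.6% lower. All 14 members that rose in the main comparison also passed as higher under that scaling, and 16 of the 19 that fell passed as lower. With the replicate number as a block, 16 members were higher and 24 lower (background 26.6% and 26.1%). These held all 33 members called without the block and 7 more, NDUFB6 and ATP5MC1 as higher and NDUFA12, NDUFS1, COX4I1, ATP5PB and ATP5MF as lower.

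**Figure D1:**
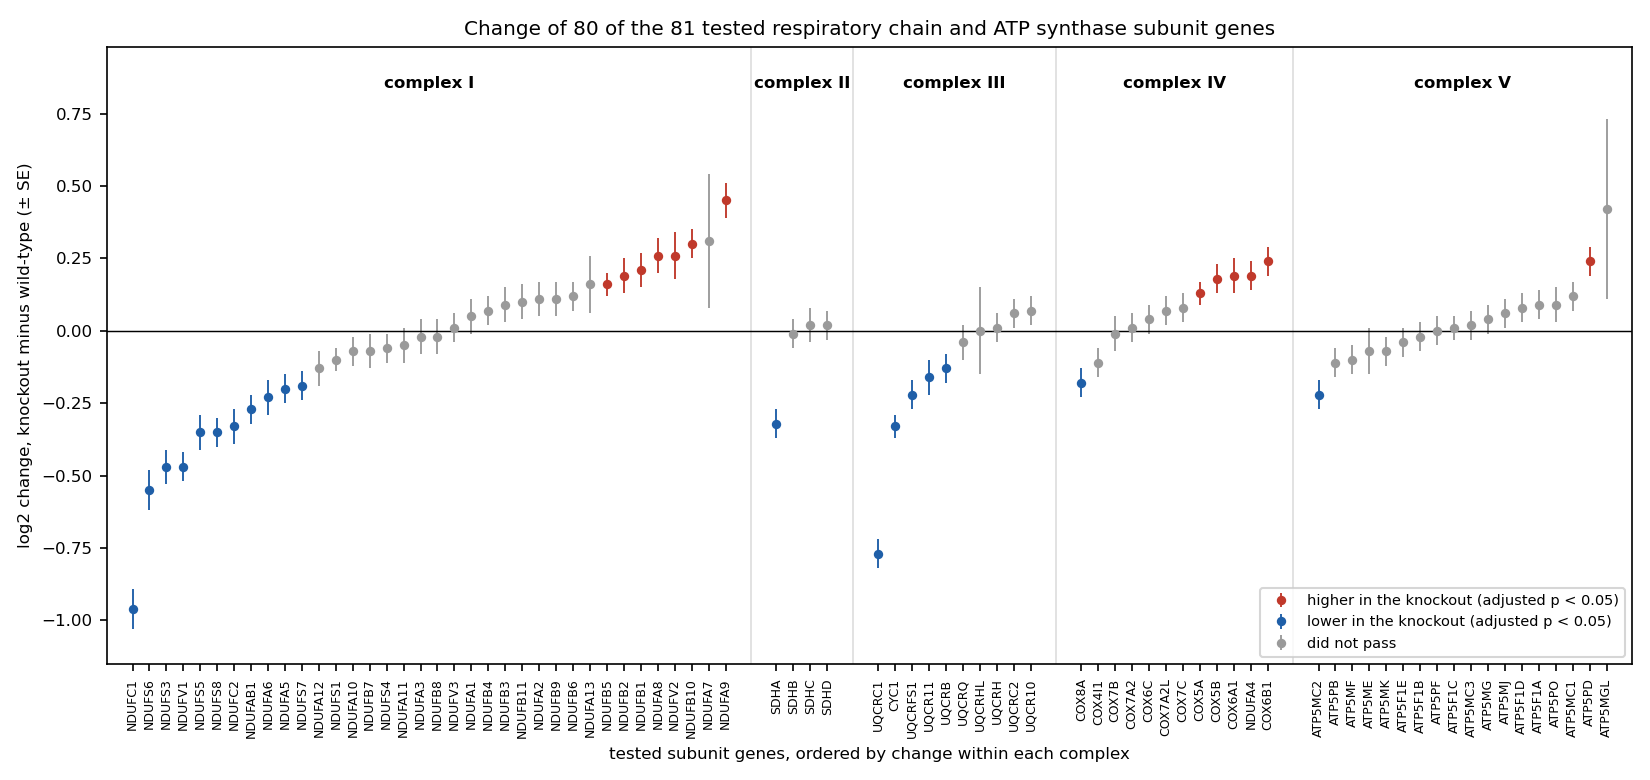
Log2 change (knockout minus wild-type, with its standard error) of 80 of the 81 tested subunit genes, ordered within each complex and coloured by call at adjusted p below 0.05. Falls in complexes I, II and III reach -0.96, -0.32 and -0.77, complex IV has 5 genes higher and 1 lower, and in complex V 16 of 18 genes did not pass. With upper-quartile scaling 29 genes were higher and 16 lower, where 30.3% and 18.6% of all genes were.

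Complex I, the NADH dehydrogenase, held the widest range of changes. Of its 37 genes, all tested, 8 rose, 11 fell and 18 did not pass, with a median of -0.02. The share called, 51.4%, was near the 47.6% of all genes. Among the core subunits encoded in the nucleus, which carry the flavin and the iron-sulfur clusters, NDUFV1, NDUFS3, NDUFS7 and NDUFS8 fell, NDUFV2 rose and NDUFS1 did not pass. Of 11 NDUFB genes, whose products sit in the outer part of the membrane arm, 4 rose, 0 fell and 7 did not pass, and their median was 0.11, beside 23.9% and 23.6% of all genes higher and lower. With upper-quartile scaling 9 of the 11 NDUFB genes were higher and 0 lower, where 30.3% and 18.6% of all genes were.

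NDUFC1 (ENSG00000109390, chromosome 4, 139266880 to 139302551, minus strand in GENCODE 29 on GRCh38), a small accessory subunit of the membrane arm, had the largest change of any member. Its level was 25.4, 24.3, 25.1 and 20.8 CPM in wild-type replicates 1, 2, 3 and 5 and 12.0, 12.1, 12.3 and 12.6 CPM in knockout replicates 1, 2, 3 and 5. Every knockout sample was far below the lowest wild-type sample, wild-type replicate 5, and the knockout samples differed little among themselves. The means were 23.9 ± 2.11 and 12.3 ± 0.250 CPM (SD, n = 4 each). The log2 change was -0.96 (SE 0.07, adjusted p = 2.69e-10). Of its exon bases 18.5% are shared on the same strand with MGARP. NDUFC2 (chromosome 11, minus strand), the partner subunit of NDUFC1, had 34.0, 33.2, 39.8 and 34.3 CPM in wild-type and 27.3, 29.8, 27.4 and 27.8 CPM in the knockout, again with no overlap, and changed by -0.33 (adjusted p = 0.000114).

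Among the core subunits, NDUFV1 (ENSG00000167792, chromosome 11, 67605653 to 67612554, plus strand), which holds the flavin and the site for NADH, had 96.7, 93.2, 101 and 94.3 CPM in wild-type replicates 1, 2, 3 and 5. In the knockout replicates it had 74.5, 68.2, 68.1 and 67.7 CPM, so all 4 were lower, with replicate 1 above the other 3. The log2 change was -0.47 (SE 0.05, adjusted p = 4.6e-08, n = 4 each). NDUFS3 (ENSG00000213619, chromosome 11, 47565336 to 47584562, plus strand), a core subunit of the module that reduces ubiquinone, had 46.3, 44.9, 48.2 and 45.3 CPM in wild-type and 36.6, 34.2, 32.0 and 31.0 CPM in the knockout. The groups were clearly apart, and the change was -0.47 (SE 0.06, adjusted p = 5.35e-07). NDUFS3 shares 19.6% of its exon bases on the same strand with PTPMT1. NDUFS8, which carries iron-sulfur clusters of the same module, fell from 76.5 ± 1.64 to 59.9 ± 2.13 CPM (-0.35, adjusted p = 1.27e-06).

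NDUFS7, the subunit with the last iron-sulfur cluster before ubiquinone, had a log2 change of -0.19 (adjusted p = 0.00531), but did not pass with upper-quartile scaling (adjusted p = 0.0528). NDUFS1, the largest subunit, stood at 178 ± 4.48 and 166 ± 5.47 CPM. Its knockout samples lay below all wild-type samples, its change of -0.10 did not pass (adjusted p = 0.0666), and with the replicate block it did (adjusted p = 0.0373). In the other direction, NDUFV2, the partner of NDUFV1 in the NADH-oxidising module, rose from 10.0 ± 0.677 to 12.0 ± 1.04 CPM (0.26, adjusted p = 0.0104). A transcript annotated on the same strand covers 28.4% of its exon bases.

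The accessory subunit NDUFA9 (ENSG00000139180, chromosome 12, 4649095 to 4694317, plus strand), which binds a nucleotide near the ubiquinone site, had the largest rise among members that passed. Its level was 19.0, 19.4, 21.0 and 18.5 CPM in wild-type and 26.3, 26.3, 27.7 and 25.8 CPM in the knockout. The lowest knockout sample stood above the highest wild-type sample, and the change was 0.45 (SE 0.06, adjusted p = 1.94e-06, n = 4 each). NDUFB10 (ENSG00000140990, chromosome 16, 1959508 to 1961975, plus strand), of the membrane arm, had 51.6, 48.8, 54.8 and 49.0 CPM in wild-type and 65.0, 64.3, 64.6 and 58.0 CPM in the knockout. Knockout replicate 5 was lower than the other 3 but still above every wild-type sample, and the change was 0.30 (SE 0.05, adjusted p = 6.23e-05). NDUFA8, an accessory subunit on the side of the intermembrane space, had 27.8, 30.8, 32.0 and 30.3 CPM in wild-type and 35.8, 37.0, 37.7 and 34.3 CPM in the knockout, with no overlap (0.26, SE 0.06, adjusted p = 0.000599).

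Smaller rises in complex I included those of NDUFB1 (0.21), NDUFB2 (0.19) and NDUFB5 (0.16), with adjusted p from 0.00516 to 0.0136. NDUFB2 no longer passed without wild-type replicate 5 (0.0669). Among the falls, NDUFS6, a zinc-binding subunit of the peripheral arm, went from 38.7 ± 4.30 to 26.4 ± 1.62 CPM (-0.55, adjusted p = 1.74e-06). NDUFS5 changed by -0.35, NDUFA6 by -0.23 and NDUFA5 by -0.20. NDUFAB1, the mitochondrial acyl carrier protein that also serves fatty acid and iron-sulfur cluster synthesis, fell from 49.2 ± 2.97 to 40.8 ± 0.814 CPM (-0.27, adjusted p = 0.000169). Members that did not pass ran from NDUFA12 at -0.13 (adjusted p = 0.0653, and 0.0122 with the replicate block) to NDUFA7 at 0.31 (adjusted p = 0.285). NDUFA7 had as few as 28 counts in a sample and shares 32.3% of its exon bases with a readthrough transcript, so its value is imprecise. NDUFB6 changed by 0.12 (adjusted p = 0.0514, and 0.0292 with the block). The remaining genes that did not pass were NDUFA1, NDUFA2, NDUFA3, NDUFA10, NDUFA11, NDUFA13, NDUFB3, NDUFB4, NDUFB7, NDUFB8, NDUFB9, NDUFB11, NDUFS4 and NDUFV3, with changes from -0.07 to 0.16. How the counting treated strand is not given in the sources used here. Genes that overlap others on the opposite strand over 35.1% to 49.1% of their exon bases (NDUFB2, NDUFA1, NDUFB11 and NDUFS7) could therefore hold some reads of those genes.

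Levels of different genes were compared only per kilobase of annotated exon. The length took in every annotated exon of a gene, so long exons that are little used lower its value. In wild-type, complex I genes ran from 0.554 CPM per kilobase for NDUFA7, whose value is imprecise, to 71.3 for NDUFB7, with a median of 14.5 (13.2 in the knockout).

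**Figure D2:**
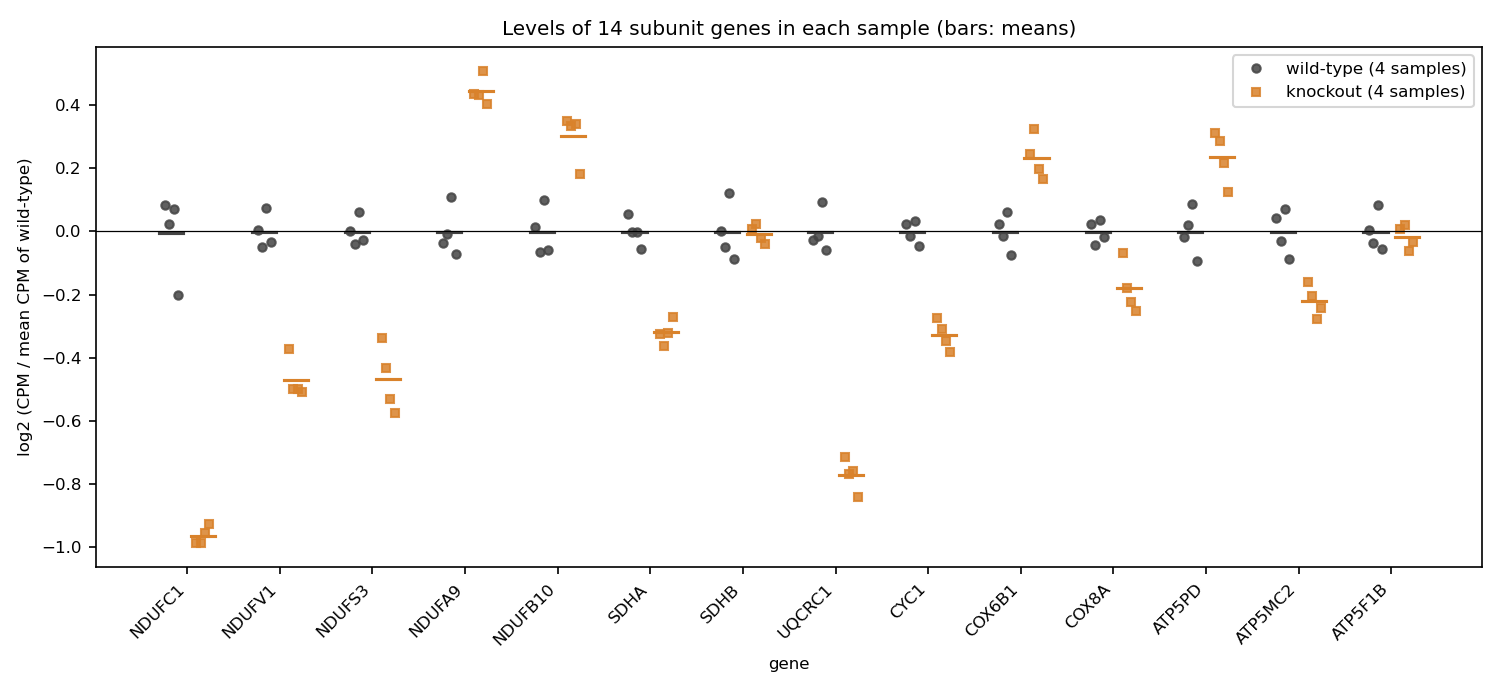
Level of 14 subunit genes in each of the 8 samples, as log2 of CPM over the wild-type mean, with points for samples and bars for means. NDUFC1 and UQCRC1 lie lowest in the knockout, NDUFA9 and NDUFB10 lie above wild-type, and the groups overlap for SDHB and ATP5F1B.

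The promoters of the complex I genes with the smallest adjusted p in each direction, NDUFC1 and NDUFA9, are shown. They span 250 bases before to 50 after the RefSeq start site, from the GRCh38.p14 tables of RefSeq. NDUFC1 lies at chr4:139302502-139302801 on the minus strand, and NDUFA9 at chr12:4648864-4649163 on the plus strand. Capitals mark letters of 5 motifs searched on both strands, the ETS or GABP motif CCGGAAG, the NRF1 motif GCGCANGCG, the YY1 motif AANATGGCG, the E-box CACGTG and the GC box GGGCGG.
NDUFC1: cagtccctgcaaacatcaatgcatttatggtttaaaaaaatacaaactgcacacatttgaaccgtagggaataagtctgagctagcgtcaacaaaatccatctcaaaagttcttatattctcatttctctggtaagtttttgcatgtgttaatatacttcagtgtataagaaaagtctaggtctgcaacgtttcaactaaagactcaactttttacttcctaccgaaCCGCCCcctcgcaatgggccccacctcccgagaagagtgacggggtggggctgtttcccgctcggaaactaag
NDUFA9: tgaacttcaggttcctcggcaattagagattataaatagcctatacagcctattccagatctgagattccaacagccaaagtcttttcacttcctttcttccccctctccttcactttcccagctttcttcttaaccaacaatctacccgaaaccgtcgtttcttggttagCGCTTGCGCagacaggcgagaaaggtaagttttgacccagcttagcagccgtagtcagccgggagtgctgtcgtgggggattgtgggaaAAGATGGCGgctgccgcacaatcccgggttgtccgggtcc
The NDUFC1 window held 1 motif, a GC box at position -23 from the start site, and the NDUFA9 window held 2, an NRF1 motif at -79 and a YY1 motif at 10. A match is a description of letters, not a bound site.

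Complex II, succinate dehydrogenase, also works in the citric acid cycle and has all its subunits encoded in the nucleus. Of its 4 genes 1 fell, SDHA, and 3 did not pass. SDHA (ENSG00000073578, chromosome 5, 218241 to 256700, plus strand), the flavoprotein that oxidises succinate, had 50.2, 48.2, 48.2 and 46.4 CPM in wild-type and 38.5, 37.5, 38.5 and 39.98 CPM in the knockout. All 4 knockout samples were lower, and the change was -0.32 (SE 0.05, adjusted p = 1.13e-05, n = 4 each). SDHB, the iron-sulfur subunit, had 83.4, 80.6, 90.7 and 78.4 CPM in wild-type and 83.8, 84.7, 82.0 and 81.04 CPM in the knockout. The membrane anchor SDHC had 29.4, 33.9, 34.4 and 32.5 CPM in wild-type and 30.8, 34.0, 34.0 and 32.9 CPM in the knockout. The other anchor, SDHD, had 79.1, 76.8, 80.96 and 73.6 CPM in wild-type and 80.1, 81.3, 79.5 and 74.0 CPM in the knockout. For these 3 genes the groups overlapped throughout, with changes of -0.01, 0.02 and 0.02 (adjusted p = 0.921, 0.851 and 0.756). The standard errors of 0.05 to 0.06 leave room for small changes in them. Per kilobase, wild-type levels ran from 2.30 CPM for SDHC to 33.8 for SDHB.

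In complex III, the cytochrome bc1 complex, 5 of 10 genes fell, 0 rose and 5 did not pass, and the median was -0.09. The share called, 50%, was near the 47.6% of all genes, of which 23.6% were lower. With upper-quartile scaling 2 rose (UQCR10 and UQCRC2), 3 fell and the median was -0.02, against 30.3% of all genes higher and 18.6% lower. UQCRC1 (ENSG00000010256, chromosome 3, 48599002 to 48610976, minus strand), the first of the core proteins on the matrix side, had 151, 153, 165 and 148 CPM in wild-type and 93.8, 90.3, 90.9 and 85.9 CPM in the knockout. The knockout samples were all far below wild-type, and the change of -0.77 (SE 0.05, adjusted p = 2.16e-11, n = 4 each) had the smallest adjusted p of all members. Its partner core protein UQCRC2 stood at 108 ± 5.08 and 112 ± 4.29 CPM (0.06, adjusted p = 0.330), so the genes of the core pair did not move alike. CYC1 (ENSG00000179091, chromosome 8, 144095027 to 144097525, plus strand), cytochrome c1, had 197, 192, 198 and 187 CPM in wild-type and 160, 156, 152 and 148 CPM in the knockout, without overlap (-0.33, SE 0.04, adjusted p = 2.59e-06).

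UQCRFS1, the Rieske iron-sulfur protein, had 72.7, 68.4, 78.8 and 67.4 CPM in wild-type and 61.4, 61.6, 60.7 and 62.5 CPM in the knockout. The groups were apart by a small margin, and the change was -0.22 (SE 0.05, adjusted p = 0.00104). Pseudogene copies of UQCRFS1 held counts equal to 13.1% of its own, and reads could have been shared with them. The small subunits UQCR11 and UQCRB changed by -0.16 and -0.13 (adjusted p = 0.0282 and 0.0241), and both calls were fragile. UQCR11 did not pass with upper-quartile scaling (adjusted p = 0.174) or without wild-type replicate 1 (0.0603), knockout replicate 2 (0.0705) or knockout replicate 3 (0.0987). UQCRB did not pass with upper-quartile scaling (0.227), when the test kept only genes with a mean log2 CPM of 1 or more (0.0554), or without knockout replicate 1 (0.0654) or 5 (0.0794). UQCRH, UQCRHL, UQCRQ and UQCR10 did not pass either, with changes from -0.04 to 0.07. Per kilobase, complex III ran from 1.227 CPM for UQCRHL to 98.0 for CYC1 in wild-type.

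The promoter of UQCRC1, at chr3:48609597-48609896 on the minus strand, is printed as that of the member with the smallest adjusted p. Capitals mark the same 5 motifs.
UQCRC1: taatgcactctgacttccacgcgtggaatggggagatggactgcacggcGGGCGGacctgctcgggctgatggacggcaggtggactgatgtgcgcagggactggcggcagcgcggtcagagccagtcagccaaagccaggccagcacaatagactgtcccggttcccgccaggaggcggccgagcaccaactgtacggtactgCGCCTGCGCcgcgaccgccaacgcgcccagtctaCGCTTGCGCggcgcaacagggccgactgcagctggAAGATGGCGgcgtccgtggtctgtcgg
It held 4 matches, a GC box at -201, NRF1 motifs at -46 and -12 and a YY1 motif at 23.

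In complex IV, cytochrome c oxidase, 5 of 12 tested genes rose, 1 fell and 6 did not pass. The share called was 50%, near the 47.6% of all genes, of which 23.9% were higher. The median was 0.07, and with upper-quartile scaling it was 0.14, with 7 genes higher and 1 lower against 30.3% and 18.6% of all genes. COX6B1 (ENSG00000126267, chromosome 19, 35648223 to 35658861, plus strand), on the side where cytochrome c binds, had 78.6, 76.6, 80.7 and 73.5 CPM in wild-type and 91.7, 97.0, 88.7 and 86.8 CPM in the knockout. No knockout sample fell within the wild-type range, and the change was 0.24 (SE 0.05, adjusted p = 0.000357, n = 4 each). NDUFA4, named for complex I but known as a subunit of complex IV, had 56.6, 60.2, 62.9 and 58.0 CPM in wild-type and 65.5, 72.2, 66.8 and 67.0 CPM in the knockout, with no overlap (0.19, SE 0.05, adjusted p = 0.00277). COX5B, which binds zinc on the matrix side, had 59.1, 59.1, 58.8 and 56.4 CPM in wild-type and 66.1, 67.7, 67.9 and 62.4 CPM in the knockout. Its groups were apart as well (0.18, SE 0.05, adjusted p = 0.00297).

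COX5A changed by 0.13 (adjusted p = 0.0161), and it no longer passed without wild-type replicate 2 (0.0572) or 5 (0.0628). The single fall was that of COX8A (ENSG00000176340, chromosome 11, 63974607 to 63976543, plus strand), one of the smallest subunits of the complex. It had 125, 119, 126 and 121 CPM in wild-type and 117, 109, 105 and 103 CPM in the knockout. Knockout replicate 1 came close to the lowest wild-type sample but did not reach it, and the change was -0.18 (SE 0.05, adjusted p = 0.00366). Another annotated gene covers 34.5% of the exon bases of COX8A on the same strand. Without wild-type replicate 5, or with the replicate block, 2 genes of complex IV were lower, the added one being COX4I1. With the block 26.1% of all genes were lower, and the share without wild-type replicate 5 is not given here.

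Several subunits of complex IV exist as isoforms from separate genes, and these cells used 1 set of them. COX4I1, the general form of subunit 4, had 136, 141, 139 and 126 CPM in wild-type and 129, 127, 127 and 119 CPM in the knockout. The groups overlapped, and the change was -0.11 (adjusted p = 0.0607, and 0.0183 with the replicate block). COX4I2, the form induced by low oxygen and found in lung, had 2 counts over the 4 wild-type samples and 1 over the knockout samples. COX6A1, the general form of subunit 6A, had 45.7, 46.3, 50.8 and 43.8 CPM in wild-type and 56.0, 56.1, 52.1 and 48.1 CPM in the knockout. Here knockout replicate 5 lay inside the wild-type range, and the change of 0.19 (SE 0.06, adjusted p = 0.0116) did not pass without knockout replicate 2 (adjusted p = 0.0536). Pseudogene copies of COX6A1, COX6A1P2 among them, held counts equal to 130% of its own, so its level is uncertain. COX6A2, the heart and muscle form, had 0 counts in every sample.

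COX6B2, a testis form, had 5 counts in wild-type and 9 in the knockout in all. COX7A1, the muscle form of subunit 7A, had 0 and 2 counts, COX7B2 had 1 and 0, and COX8C, another testis form, had 2 and 2. All of these were at or near the floor of 3 counts per library, which corresponds to 0.0600 to 0.0748 CPM, and gave no comparison. None of the subunit 7 genes in use passed in the main comparison. COX7A2 had 68.0, 73.0, 74.4 and 69.5 CPM in wild-type and 69.6, 79.5, 69.7 and 68.1 CPM in the knockout (0.01, adjusted p = 0.901). COX7A2L, which takes part in joining complexes into supercomplexes, had 83.4, 83.9, 92.0 and 78.0 CPM in wild-type and 89.0, 91.2, 89.7 and 83.1 CPM in the knockout (0.07, adjusted p = 0.314). COX7B had 53.3, 53.0, 50.0 and 49.3 CPM in wild-type and 47.4, 56.7, 49.8 and 50.4 CPM in the knockout (-0.01, adjusted p = 0.903). The groups overlapped for all 3. COX6C and COX7C changed by 0.04 and 0.08 without passing. With upper-quartile scaling COX7C and COX7A2L passed as higher (adjusted p = 0.00797 and 0.0310), and without wild-type replicate 3 they did as well (0.0216 and 0.0423). Per kilobase the tested genes ran from 14.8 CPM for COX6C to 242 for COX8A in wild-type.

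Promoters of the complex IV genes with the smallest adjusted p in each direction were COX6B1, at chr19:35648073-35648372, and COX8A, at chr11:63974370-63974669, both on the plus strand. Capitals again mark the 5 motifs.
COX6B1: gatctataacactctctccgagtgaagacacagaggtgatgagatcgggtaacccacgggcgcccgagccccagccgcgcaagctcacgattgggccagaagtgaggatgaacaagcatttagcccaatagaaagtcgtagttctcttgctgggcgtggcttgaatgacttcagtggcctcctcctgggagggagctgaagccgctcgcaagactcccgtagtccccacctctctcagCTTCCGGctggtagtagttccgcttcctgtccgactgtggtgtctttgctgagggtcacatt
COX8A: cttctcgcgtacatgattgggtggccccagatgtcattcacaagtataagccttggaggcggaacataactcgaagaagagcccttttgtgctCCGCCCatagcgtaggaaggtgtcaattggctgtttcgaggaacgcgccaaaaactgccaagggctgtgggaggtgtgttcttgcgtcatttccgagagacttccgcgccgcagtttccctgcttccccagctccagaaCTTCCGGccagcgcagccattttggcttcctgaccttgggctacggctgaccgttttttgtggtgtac
Both held an ETS or GABP motif close to the start site (-12 in COX6B1 and -18 in COX8A), and COX8A also held a GC box at -157. The genes moved in opposite directions.

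In complex V, ATP synthase, few genes passed. Of 18 tested genes 1 rose, 1 fell and 16 did not pass, which is 11.1% called against 47.6% of all genes. With upper-quartile scaling 6 were higher and 1 lower, where 30.3% and 18.6% of all genes were, so the scarcity of rises depended on the scaling. With the replicate block 2 were higher and 3 lower, against 26.6% and 26.1% of all genes. Without wild-type replicate 3, 3 were higher (ATP5PD, ATP5F1A and ATP5MC1), and without wild-type replicate 5, 3 were lower (ATP5MC2, ATP5MF and ATP5PB). The share of all genes called is not given for the fits with a sample left out. None of the 5 genes of the catalytic F1 head passed. ATP5F1B, the catalytic beta subunit, stood at 670 ± 29.5 and 663 ± 17.8 CPM (-0.02, SE 0.05, adjusted p = 0.811), and ATP5F1A, the alpha subunit, at 350 ± 22.1 and 372 ± 8.04 CPM (0.09, adjusted p = 0.157). The changes of the gamma, delta and epsilon subunits, ATP5F1C, ATP5F1D and ATP5F1E, were 0.01, 0.08 and -0.04. With upper-quartile scaling ATP5F1A and ATP5F1D passed as higher (adjusted p = 0.00887 and 0.0107).

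In the peripheral stalk, which holds the F1 head still, the d subunit gene ATP5PD (ENSG00000167863, chromosome 17, 75038863 to 75046985, minus strand) rose. It had 69.1, 70.8, 74.2 and 65.5 CPM in wild-type and 86.7, 85.3, 81.3 and 76.2 CPM in the knockout, with the lowest knockout sample above the highest wild-type sample (0.24, SE 0.05, adjusted p = 0.000648). Its stalk partners did not pass. ATP5PB, the b subunit, changed by -0.11 (adjusted p = 0.0686, and 0.0292 with the replicate block), ATP5PF by 0.00 and ATP5PO by 0.09. Of the small membrane subunits, ATP5MF changed by -0.10 (adjusted p = 0.0970, and 0.0441 with the block), and ATP5ME, ATP5MG, ATP5MJ and ATP5MK by -0.07 to 0.06. ATP5ME shares 61.6% of its exon bases with MYL5 on the opposite strand. ATP5MGL had as few as 9 counts in a sample, and its change of 0.42 has a standard error of 0.31. The readthrough gene ATP5MF-PTCD1 had 21 and 17 counts over the groups and was not tested.

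Subunit c, which forms the rotating ring in the membrane, is encoded by 3 genes whose products differ only in the import sequence that is removed. ATP5MC1 had 101, 96.7, 115 and 98.7 CPM in wild-type and 113, 112, 109 and 113 CPM in the knockout, with overlap at wild-type replicate 3 (0.12, adjusted p = 0.0624, and 0.0263 with the replicate block). ATP5MC2 (ENSG00000135390, chromosome 12, 53632726 to 53677408, minus strand) had 152, 144, 155 and 139 CPM in wild-type and 132, 128, 121 and 125 CPM in the knockout. It fell with no overlap (-0.22, SE 0.05, adjusted p = 0.000584). ATP5MC3 had 147, 149, 162 and 146 CPM in wild-type and 148, 160, 152 and 151 CPM in the knockout, which overlapped (0.02, adjusted p = 0.787).

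The 3 genes were also set against each other as shares of their sum per kilobase of exon, which do not depend on library scaling. The share of ATP5MC1 went from 39.9% ± 1.06 to 44.0% ± 0.497 (SD, n = 4 each) and that of ATP5MC2 from 37.5% ± 1.05 to 32.7% ± 0.686. Each comparison gave p = 0.0286 in a two-sided exact permutation test, the smallest that 4 against 4 samples allow, and 0.0429 in this exact permutation test after adjustment over the 3 genes. ATP5MC3 kept to 22.6% ± 0.441 and 23.3% ± 0.740 (exact permutation p = 0.2). Permuting within same-numbered pairs, an alternative added after the data were seen, gave an exact p of 0.125 for each gene, the smallest that 4 pairs allow, so neither call holds once pairs are kept and no gene could pass. ATP5MC1 lay above and ATP5MC2 below its wild-type partner in 4 of 4 pairs. ATP5MC1 had the highest share per kilobase in both groups. As shares of CPM without regard to length, ATP5MC1 went from 25.6% to 28.6%, ATP5MC2 from 36.8% to 32.3% and ATP5MC3 from 37.7% to 39.1%, so the order of the genes depended on the length scaling and the directions did not. Over the whole complex, wild-type levels per kilobase ran from 0.494 CPM for ATP5MGL to 289 for ATP5F1B.

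**Figure D3:**
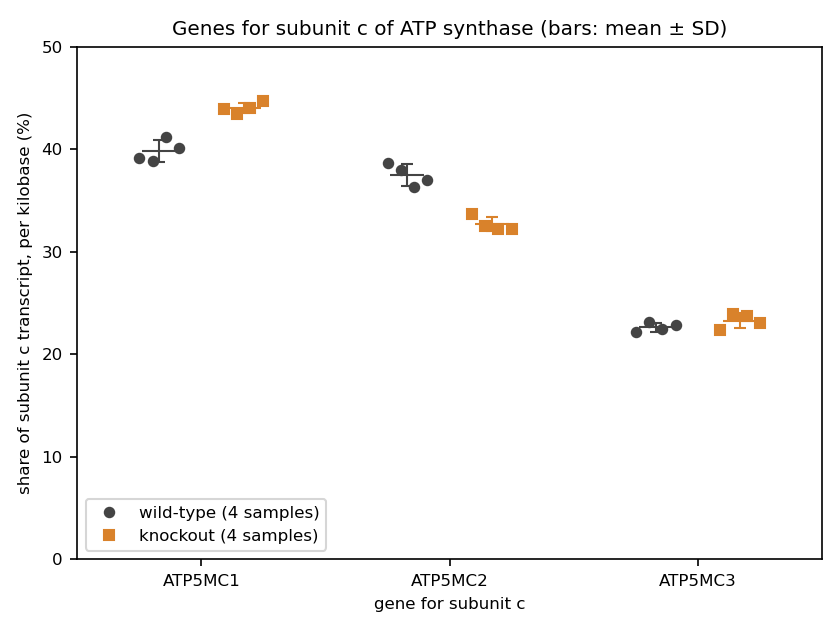
Share of each of the 3 genes for subunit c of ATP synthase in their summed level per kilobase of exon, in percent, for each sample, with the mean and SD of 4 samples. The knockout samples lie above wild-type for ATP5MC1 (44.0% against 39.9%), below it for ATP5MC2 (32.7% against 37.5%) and overlap for ATP5MC3.

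Members lie on 22 chromosomes, and where a gene lies went with how it moved. For each member the median log2 change of its nearest tested protein-coding genes was taken, up to 20 on each side and with other members left out. Across the 81 members Pearson's r between a member's change and this median was 0.77, given as a description, since all points share the same libraries and nearby members share neighbours. Of 12 members whose neighbours had a median of -0.2 or less, 11 fell, 0 rose and 1, COX4I1, did not pass, and their own median was -0.34. Of the 69 others 14 rose, 8 fell and 47 did not pass, with a median of 0.04. Genes outside the list were split in the same way. The protein-coding ones also serve as each other's neighbours, so part of their contrast is built into the split. Of 2266 tested genes outside the list with such low neighbours 61.1% fell and 8.21% rose, of the 17257 others 19% fell and 26% rose, and over all of them r was 0.25. Those genes include many with few counts and many that are not protein-coding, whose noise can weaken a correlation. This r is therefore not matched to the 0.77 of the members, and the difference between them was not tested. The limit of -0.2 was set after earlier results of these data were known. Chromosome 11 held 7 tested members, of which 5 fell (NDUFV1, NDUFS8, NDUFS3, NDUFC2 and COX8A) and 0 rose. This chromosome was singled out after the values were seen. The share of all its tested genes that fell was not worked out, so the count has no background. NDUFV1 and NDUFS8 lie 0.42 Mb apart there. NDUFS6 and SDHA, which both fell, lie 1.58 Mb apart on chromosome 5, where their neighbours had medians of -0.61 and -0.54. Why neighbouring genes moved together was not tested.

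Each member was then compared with its own neighbours, by limma on log2 CPM minus the neighbours' median in each sample, centred on each neighbour's own mean. In this comparison 19 members were higher than their neighbours and 10 lower, against a background of 23% and 21.3% of 19604 genes. Of the 19 members that fell, 7 also fell relative to their neighbours. These were UQCRC1 (-0.19, adjusted p = 0.00185), NDUFS5 (-0.31), NDUFA5 (-0.31), NDUFAB1 (-0.25), ATP5MC2 (-0.22), NDUFS3 (-0.14) and CYC1 (-0.12). For NDUFC1 the neighbours had a median of -0.88, and relative to them it stood at -0.09 (adjusted p = 0.354). NDUFV1 and NDUFS6 stood at 0.04 and 0.01 relative to neighbours with medians of -0.48 and -0.61. SDHA (0.23), COX8A (0.25), UQCRFS1 (0.24) and NDUFS8 (0.12) fell in level but were higher than their neighbours, whose medians were -0.54, -0.42, -0.40 and -0.47. SDHA had 21 tested neighbours and NDUFS6 had 35, in place of 40.

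Of the 14 members that rose, 8 also rose relative to their neighbours, led by NDUFV2 (0.42, adjusted p = 0.000409), NDUFB10 (0.31, adjusted p = 0.000149), NDUFA8 (0.22) and ATP5PD (0.21). NDUFA9, with the largest rise, has neighbours with a median of 0.42 and stood at 0.02 relative to them (adjusted p = 0.85). COX6B1 (0.16) and COX6A1 (0.20) remained higher, while COX5A (0.01), COX5B (0.09) and NDUFA4 (0.11) did not pass relative to theirs. COX4I1 passed as higher relative to neighbours that had fallen (0.17, adjusted p = 0.00686). Among members that had not passed, COX7A2 (-0.15), ATP5PB (-0.14) and ATP5MF (-0.15) passed as lower relative to their neighbours, and NDUFB3, NDUFS4, UQCRC2, COX7C, ATP5F1A and ATP5F1D passed as higher.

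**Figure D4:**
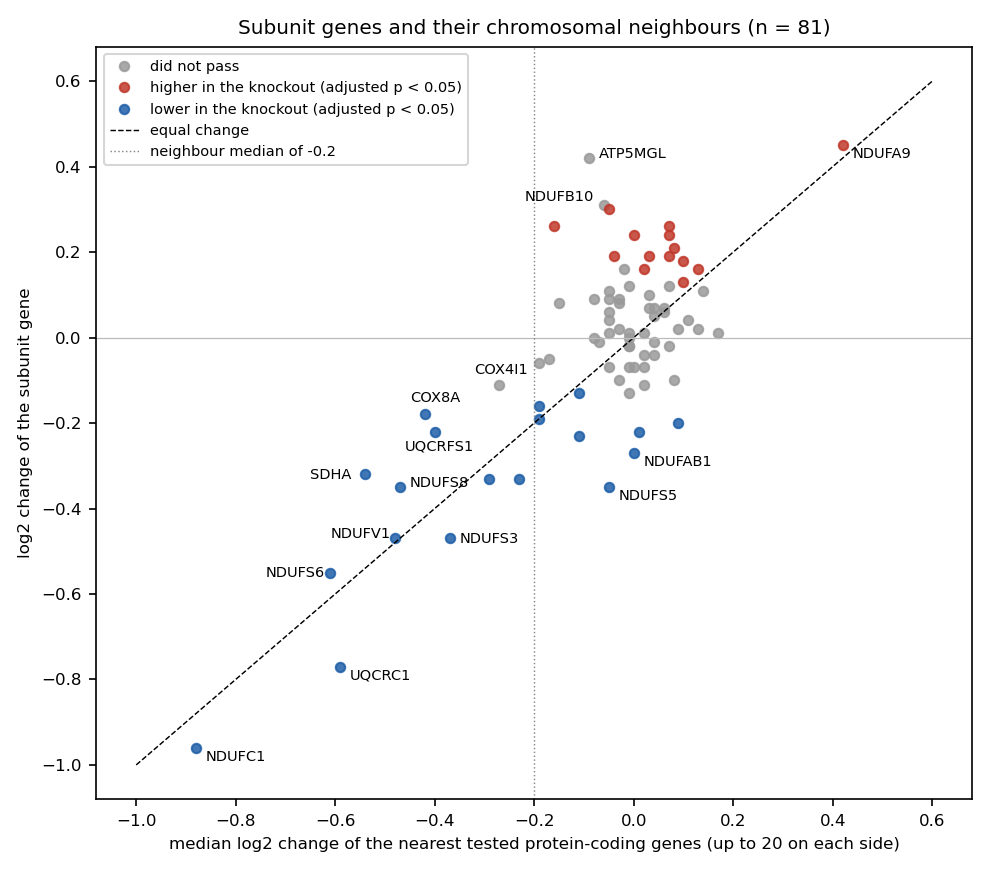
Log2 change of each of the 81 tested subunit genes against the median log2 change of its chromosomal neighbours, coloured by call, with a dashed line for equal change and a dotted line at -0.2. Left of the dotted line lie 12 genes, 11 of which fell, while NDUFS5, NDUFAB1 and NDUFB10 moved without their neighbours.

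Motif letters near the start sites were counted in the 65 tested members with a RefSeq promoter sequence and in all 10810 tested protein-coding genes that had one. The NRF1 motif was present in 33.8% of member promoters and 14.4% of all, the ETS or GABP motif in 30.8% and 18.7%, and the YY1 motif in 24.6% and 6.68%. The E-box, the site of MYC and Mondo factors, was present in 10.8% and 9.82%, and the GC box in 61.5% and 69.6%. NRF1 and GABP are known regulators of respiratory genes. In 1 member promoter 2 different motifs overlapped. By call, the NRF1 motif was in 8 of 15 promoters of members that fell, 3 of 11 of those that rose and 11 of 39 of those that did not pass, and the YY1 motif in 7, 3 and 6 of the same promoters. The E-box was in 2 of 15, 0 of 11 and 5 of 39. The ETS or GABP motif was in 3 of 15, 4 of 11 and 13 of 39, a lean unlike that of NRF1 and YY1. The GC box was in 10 of 15, 8 of 11 and 22 of 39. These shares are descriptions with no test, and no match says only that the letters are not in this window.

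Genes that assemble, serve or regulate the complexes were taken from 6 companion lists, whose counts stand beside 47.6% of all genes called, 23.9% higher and 23.6% lower, with a median of 0.00. Of 55 tested assembly factors, 8 rose, 17 fell and 30 did not pass (45.5% called), with a median of -0.09. COX18, which inserts a mitochondrially encoded subunit of complex IV, fell from 26.9 ± 0.462 to 13.8 ± 1.26 CPM (-0.96, adjusted p = 1.37e-10, n = 4 each). TMEM126B, a factor for the membrane arm of complex I, fell from 43.1 ± 3.04 to 27.2 ± 1.46 CPM (-0.66, adjusted p = 6.76e-09). TTC19, which clears fragments of the Rieske protein from complex III, changed by -0.31 (adjusted p = 5.82e-06). All 3 also fell relative to their neighbours, by 0.26, 0.47 and 0.27.

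Of 17 genes for electron carriers and coenzyme Q synthesis, 3 rose, 6 fell and 8 did not pass (52.9% called), with a median of -0.06. COQ2, which attaches the side chain of coenzyme Q, fell from 34.7 ± 1.43 to 19.6 ± 0.698 CPM (-0.82, adjusted p = 9.91e-11). ETFDH, which brings electrons from fatty acid oxidation to ubiquinone, changed by -0.66 (adjusted p = 2.16e-07), and ETFB, a subunit of its electron donor, by 0.45 (adjusted p = 7.94e-05). Relative to its neighbours COQ2 stood at -0.03 and ETFDH at 0.17, neither of which passed. CYCS, cytochrome c, had 138, 140, 163 and 137 CPM in wild-type and 122, 129, 128 and 127 CPM in the knockout. The groups did not overlap, and the change was -0.19 (SE 0.05, adjusted p = 0.00517).

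Among 5 tested subunit-like genes outside the naming rule, 3 rose, 1 fell and 1 did not pass (80% called). HIGD1A, a small protein that binds complex IV and is induced by low oxygen, fell from 70.5 ± 2.72 to 39.4 ± 2.66 CPM (-0.84, adjusted p = 4.08e-11), and its relative HIGD2A rose from 59.3 ± 1.47 to 77.8 ± 1.36 CPM (0.39, adjusted p = 2e-07). Relative to its neighbours, with a median of 0.34, HIGD2A stood at 0.06 and did not pass (adjusted p = 0.258), while HIGD1A passed as lower (-0.30). ATP5IF1, the inhibitor of ATP synthase, had 24.9, 24.2, 26.4 and 20.7 CPM in wild-type and 27.6, 29.3, 30.0 and 27.3 CPM in the knockout, without overlap (0.25, SE 0.07, adjusted p = 0.00444). NDUFA4L2, a relative of NDUFA4 induced by low oxygen, had 6 and 5 counts over the groups and was not tested.

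Of 12 tested nuclear regulators of respiratory genes, 1 rose, 8 fell and 3 did not pass (75% called), with a median of -0.22. The rise was that of PPARGC1A, the coactivator PGC-1alpha, with 3.70, 6.04, 4.52 and 4.32 CPM in wild-type and 10.8, 11.1, 12.3 and 10.5 CPM in the knockout. All knockout samples were well above wild-type, and the change was 1.27 (SE 0.11, adjusted p = 1.71e-08), or 1.18 relative to its neighbours. HIF1A, the oxygen-sensing factor, fell from 560 ± 33.0 to 390 ± 25.1 CPM (-0.52, adjusted p = 8.43e-08). MYC fell by 0.63 on the log2 scale. NRF1 and the GABP subunits GABPA, GABPB1 and GABPB2 changed by -0.20, -0.23, -0.34 and -0.52, all passing, although NRF1 did not pass with upper-quartile scaling (adjusted p = 0.0608). YY1 (-0.08), CREB1 (-0.05) and PPRC1 (-0.07) did not pass.

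In the list of 20 genes for maintenance and transcription of mitochondrial DNA, 1 rose, 8 fell and 11 did not pass (45% called), with a median of -0.10. FASTKD3, an RNA-binding protein of mitochondria, changed by -0.73 and FASTKD2 by -0.30 (adjusted p = 2.99e-09 and 4.41e-05). TFAM, which packages mitochondrial DNA and starts its transcription, fell from 214 ± 8.76 to 187 ± 7.10 CPM (-0.19, adjusted p = 0.00203). With upper-quartile scaling 3 of these genes were higher and 4 lower, against 30.3% and 18.6% of all genes. Of 19 tested reference genes of the mitochondrial membranes and matrix, 1 rose, 8 fell and 10 did not pass (47.4% called), with a median of -0.07. SLC25A4, an ADP/ATP carrier, fell from 45.3 ± 2.14 to 22.2 ± 1.66 CPM (-1.03, adjusted p = 9.28e-12), and the matrix proteases LONP1 and CLPP changed by -0.54 and -0.32. The transcript of CS, citrate synthase, stood at 159 and 160 CPM (0.00, adjusted p = 0.983). Mitochondrial content was not measured. With upper-quartile scaling 4 of these reference genes were higher and 7 lower, against the same 30.3% and 18.6% of all genes.

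**Figure D5:**
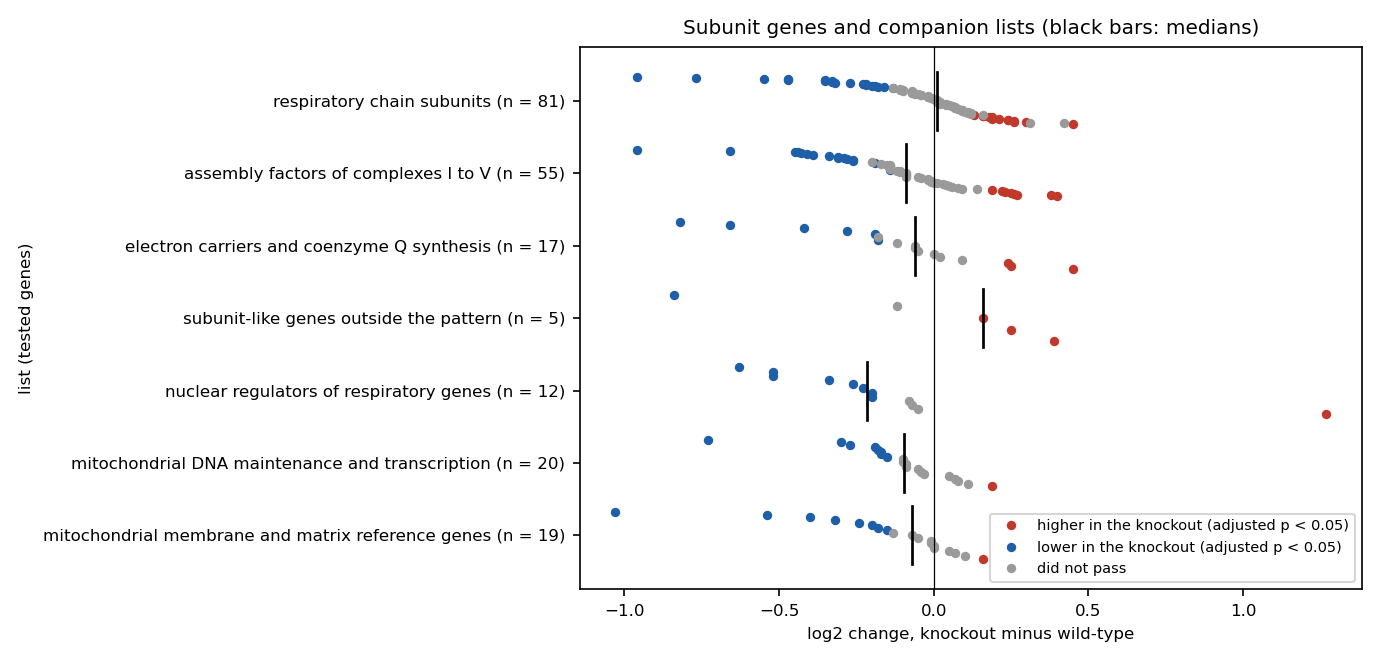
Log2 change of each tested gene among the 81 subunit genes and in 6 companion lists, coloured by call, with black bars for medians. Medians are 0.01 for the subunit genes, -0.09 for assembly factors and -0.22 for nuclear regulators, where PPARGC1A stands alone at 1.27. With upper-quartile scaling the median of all genes shifts by 0.07.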

How the data were processed

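RNA from 4 wild-type and 4 DOT1L knockout samples was sequenced after ribosomal depletion with a stranded kit, per the labels' protocols. The authors deposited raw counts of reads per gene and a table on a log2 scale, after a variance-stabilizing transformation. The submitters' processing notes name the build hg38, the aligner STAR 2.6.0c, the counter featureCounts with Subread 1.6.2, DESeq2 1.23.10 and, for read quality, FastQC 0.11.7. The annotation release, strand setting and handling of reads with several matches are not given in the sources used here.

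The deposited counts were fitted over all genes with edgeR 4.0.16 in R 4.3.3 (low counts removed by filterByExpr, TMM scaling, robust quasi-likelihood test on genotype, Benjamini-Hochberg adjustment at 0.05). Adjusted p-values are from this test unless another is named. CPM used TMM-scaled library sizes, and log2 CPM a prior count of 2. The deposited log2 values served only for an alternative with limma 3.58.1. Other alternatives were DESeq2 1.42.0, other scalings and filters, a replicate block, each replicate left out and a comparison with chromosomal neighbours. Python 3.11.15 and scipy 1.17.1 gave the exact permutation tests. The main fit and the neighbour fits were tested on simulated data in which a small part of the genes changed. Those data did not cover scaling when as many genes change as passed here. Names and coordinates were from GENCODE 29, which held 58459 of 60646 gene IDs.

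Same-numbered samples deviated from their group means together (correlations of 0.153 to 0.391, against -0.301 to 0.0596 for differently numbered samples). Deviations from a mean cancel within a group, so positive values for same-numbered samples force lower ones for the rest. The numbers in the sample titles were taken to pair the samples in the replicate block and in the permutations within pairs. The main fit did not use the pairing. No 2 replicates agreed within sampling noise (chi-square over its degrees of freedom, 3.68 to 20.5).

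Members, gene lists, markers and limits were chosen with earlier results of these data known. Values per sample are given for, in each complex, up to 3 members in each direction with the smallest adjusted p, for all complex II genes, CYC1, and the paired isoforms of complexes IV and V, and up to 3 genes of each companion list were named by the same measure, with PPARGC1A, CYCS, NDUFA4L2, ATP5IF1 and DOT1L in any case. Other genes were named after their values were seen. The values of 1 member are not reported here, and it is left out of the plot of changes by complex, while the counts over all members include it.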

Additional observations from a re-analysis of the deposited data

Results flagged for a closer look

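In 11 of 162 groups of 4 samples (81 members in 2 groups), 1 sample lay far from the other 3 for the range of the group. Chance flags about 1 in 20 groups, or 8.1 of these. In the knockout, replicate 5 was low for NDUFA6 (34.5 CPM, the others at 38.5 to 39.1) and NDUFB10 (58.0, the others at 64.3 to 65.0). Knockout replicate 1 was high for NDUFV1 (74.5, others 67.7 to 68.2) and UQCRC2 (119, others 110 to 111). Knockout replicate 2 was high for COX7A2 (79.5, others 68.1 to 69.7) and ATP5MGL (0.590, others 0.496 to 0.510). In wild-type, replicate 3 was high for NDUFB3 (38.7, others 35.6 to 35.9), NDUFC2 (39.8, others 33.2 to 34.3) and ATP5F1C (146, the others all at 141). Wild-type replicate 5 was low for COX5B (56.4, others 58.8 to 59.1) and ATP5MF (56.5, others 62.9 to 64.0).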

How the results depend on the processing

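DESeq2 added NDUFS1 (adjusted p = 0.0463) to the members called and changed no other member, and limma on the deposited log2 values changed none. With upper-quartile scaling or library totals alone, 29 members were higher, 14 of them in complex I, 2 in complex III and 6 in complex V, while 3 in complex III were lower. The medians of complexes II, IV and V were then 0.07, 0.14 and 0.08. When only genes with a mean log2 CPM of 1 or more were kept, 22 members were higher, 4 of them in complex V, and with a lower count limit 2 were lower in complex IV and 2 in complex V. For library totals alone and for both filters the share of all genes called is not given here. Their counts therefore have no background and are not results about the members. In the fit with the replicate block, 2 were lower in complex IV, and 2 were higher and 3 lower in complex V. For the shares of ATP5MC1 and ATP5MC2 in subunit c, permuting within pairs left differences of 4.19 and -4.83 percentage points that did not pass (exact permutation p = 0.125, the smallest possible). The block ended no member's call and added those named above.

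Relative to uncentred medians of chromosomal neighbours, 9 members were lower, 5 in complex I, 1 in complex III, 0 in complex IV and 2 in complex V, and 1 was higher in complex II, 1 in complex III and 4 in complex V. No share of all genes is given for the uncentred comparison, so its counts have no background. With centred neighbours, an alternative chosen after seeing the data, 10 were lower, 4 in complex I, 0 in complex II, 2 in complex III and 3 in complex V. There 1 was higher in complex II, 2 in complex III and 3 in complex V, and the median of complex II was -0.04. Signs turned relative to uncentred neighbours for, among others, NDUFA11 (0.40), NDUFC2 (0.08), NDUFS4 (0.28), NDUFS6 (0.02), NDUFS8 (0.17), NDUFV1 (0.02), SDHA (0.19), SDHC (-0.31), UQCR11 (0.01), UQCRB (0.02), UQCRFS1 (1.18), COX4I1 (0.33), COX8A (0.17), ATP5MC1 (-0.24) and ATP5PB (0.17). Relative to centred ones they turned for NDUFS4 (0.14), NDUFS6 (0.01), NDUFS8 (0.12), NDUFV1 (0.04), SDHA (0.23), UQCR11 (0.00), UQCRFS1 (0.24), COX4I1 (0.17), COX7A2 (-0.15) and COX8A (0.25). Uncentred medians were taken over log2 CPM as it stood, so the unlike levels of the neighbours entered them, and centring removed those levels. The cause of the turns was not tested.

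Leaving out each replicate in turn gave 11 to 20 members higher and 18 to 23 lower, with 11 higher and 23 lower without wild-type replicate 5 and 20 higher without wild-type replicate 3. A left-out sample can shift the calls of all genes, and their share is not given for these fits, so the counts have no background. In complex II the median ran from -0.02 to 0.04, 1 to 2 were lower in complex IV, and in complex V 1 to 3 were higher and 1 to 3 lower. Depth limited NDUFA7 and ATP5MGL, the only tested members with under 100 counts in a sample.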
